A study of Mus musculus with 14 samples.

Results

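The genes described here encode the membrane trafficking machinery: Rab and Arf GTPases, SNARE proteins (Vamp and Stx), sorting nexins (Snx), vacuolar sorting proteins (Vps), synaptotagmins (Syt), synaptotagmin-like proteins (Sytl) and subunits of the adaptor protein complexes (Ap). A rule on names picked them, with earlier results of these data known. It took probe sets with a single gene symbol that begins with one of these family names and a number, or with Sytl. The rule found 385 probe sets of 195 genes among 36701 probe sets, of which 29131 carried a single symbol, naming 15964 genes in all. A name is not a function, and 12 of the 195 genes were partners, regulators or antisense transcripts named after a Rab (Rab11fip5, Rab3gap1, Rab10os and the like). The group called FDC-E consisted of mouse primary splenocytes enriched for follicular dendritic cells (FDC), and the group called FDC-D of splenocytes depleted of them. The labels give neither strain, genotype, treatment, age and number of animals nor how the fractions were separated. Total RNA had been measured on 14 oligonucleotide arrays of 3 array sets with different probe sets: set A (2 FDC-D and 3 FDC-E arrays), set B (2 and 2, without enriched sample 1) and set C (2 and 3). No label ties the samples of a group to different animals. All p-values therefore rest on the variation among these samples, and that variation could be technical.

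Transport between the compartments of a cell runs in steps. Arf GTPases and adaptor complexes gather cargo into a budding coat, Rab GTPases mark each membrane and recruit tethers, and SNARE proteins pull vesicle and target membrane together to fuse. Sorting nexins and the retromer, a complex of Vps proteins, return receptors from endosomes, whereas the ESCRT machinery, other Vps proteins among it, sorts cargo into the lysosomal route. FDC are known for taking up complement-coated antigen, keeping it in cycling endosomes and showing it to B cells at their surface, and the comparison asks which trafficking genes had RNA that went with the FDC-enriched fraction.

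Both fractions were mixtures, and the marker genes showed what else separated them. All 7 FDC markers tested were higher in FDC-E, with summed intensities on set A of 5044 to 5888 in FDC-D and 21429.5 to 25774 in FDC-E. Sums in this paragraph cover only the markers of a list measured on set A, and Vcam1 belongs to both the FDC and the macrophage list. Cxcl13, the chemokine that FDC secrete, rose from 26.0 and 38.9 to between 1179 and 1560.3. The labels and these markers therefore point the same way, but the enriched arrays were also higher in all 8 endothelial markers (sum of 7, 1450.3 to 1493 against 16400.3 to 18510.1), all 8 macrophage markers (6857 to 8325 against 16997 to 20643), 6 of 7 fibroblast and matrix markers (sum of 6, 1388 to 1403 against 6467 to 7368, Col1a1 not passing) and all 4 tested megakaryocyte and platelet markers. Of the latter, Gp9 and Gp1bb on set A summed to 985 to 1057 against 1271 to 1426, while Ppbp on set B rose 9.33-fold and Itga2b on set C 2.76-fold. Markers of B cells (5 of 5 tested lower in FDC-E, 18382 to 18412 against 4411 to 6282), T cells (6 of 6, 4647 to 4913 against 1460.3 to 1538), NK cells (5 of 5, sum of 3, 2468 to 2848 against 419 to 578) and neutrophils (4 of 4, 5608 to 6308 against 2386 to 2982) all fell. The NK cell markers outside set A, Nkg7 on C and Il2rb on B, fell 1.34-fold and 3.21-fold. Of 2 tested erythroid markers 1 rose (3856 to 5021 against 5431 to 7589), and of 4 tested dendritic cell markers 1 rose and 2 fell (2834 to 3418 against 2011 to 2434). The part of these other cell types in the changes of the trafficking genes was not tested, and in mixed cells a change in the number of cells of a type and a change in RNA per cell cannot be told apart. Rank correlations between arrays were 0.987 to 0.995 within a group and 0.909 to 0.970 between groups.

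Trafficking genes moved in both directions. Each gene was represented by its brightest tested probe set, which left 170 genes, since 25 were too dim for the test. In FDC-E 44 of the 170 rose (25.9%), against 19.3% of all 12273 genes tested, and 22 fell (12.9%, against 14.5%), at an adjusted p under 0.05 with limma. The remaining 104 did not pass. The median log2 difference, FDC-E minus FDC-D, was 0.02 for the trafficking genes and 0.02 for all genes, and the range of the former ran from -1.72 to 1.71. Of the 170 genes, 5 rose at least 2-fold (Stx11, Rab13, Vamp5, Rab2a and Stx12) and 5 fell at least 2-fold (Snx29, Rab27a, Snx2, Vamp2 and Vps37b). Of all genes tested, 4.28% rose and 1.87% fell by as much. The balance of rises and falls depended on the scaling of the arrays. With quantile normalization 38 rose and 29 fell, and with every array scaled to a common median 34 rose and 31 fell. The share of calls that were rises thus went from 66.7% to 56.7% and 52.3% among the trafficking genes. Over all genes it likewise went down, from 57.1% to 46.3% and 45.2%. Without depleted sample 1, 29 rose and 12 fell, and without depleted sample 2, 29 rose and 15 fell. Of the 66 genes that passed, 36 kept their call under every alternative that gave a value, and none changed direction. Rab27a, Vps13a, Vamp7 and Syt1 are among the 36 but were too dim to be tested in 2 of the fits that leave out a sample. The groups did not overlap in any of the 66, nor in 42 genes that did not pass. Over all genes tested, passing or not, 61.4% had groups without overlap. A gene that passes with so few arrays will mostly have groups apart, and some entered the test through 1 group alone. The lack of overlap is therefore no separate support for the 66 calls.

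**Figure D1:**
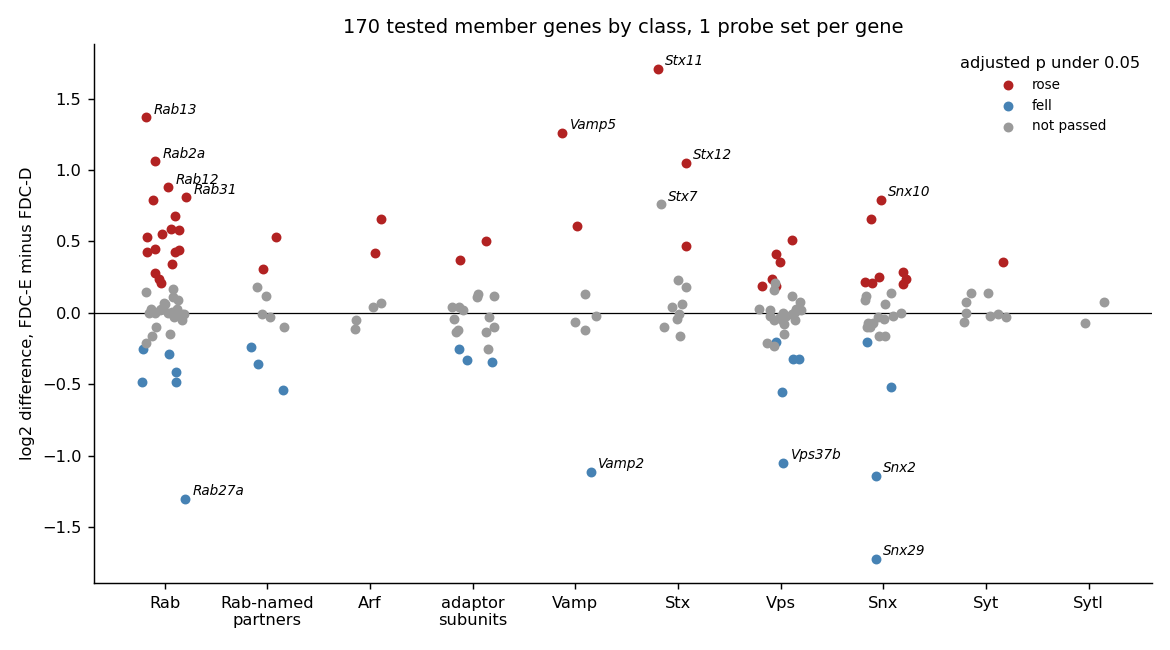
Log2 difference in intensity, FDC-E minus FDC-D, for the 170 tested genes (vertical axis), grouped by gene class (horizontal axis); each point is 1 gene, coloured by whether it rose, fell or did not pass at an adjusted p under 0.05. Most points lie close to 0, and Stx11 (1.71) and Snx29 (-1.72) mark the ends of the range.

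By array set, 37 member probe sets rose and 19 fell of 113 tested on set A (32.7% and 16.8%, against 23.1% and 17.9% of all 7889 probe sets tested). On set B 16 rose and 17 fell of 101 (15.8% and 16.8%, against 19.4% and 17.0% of 7792), and on set C 9 of 50 rose (18.0%, against 9.47% of 7370) and 4 fell (against 8.67%). On B the counts went to 10 rises and 10 falls without depleted sample 1, 12 and 8 without depleted sample 2, 11 and 17 without enriched sample 2, and 9 and 15 without enriched sample 3. On A 11 fell without depleted sample 1, and on C 6 rose without enriched sample 2 or 3. For 69 genes with more than 1 tested probe set, 31 had some probe sets that passed and others that did not, 28 had none that passed and 8 had all pass in the same direction. The probe sets of 2 genes, Arf4 and Rab14, passed in opposite directions.

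The Rab GTPases, the switches that give each membrane its identity, held 18 rises and 6 falls among 48 tested genes, with a median log2 difference of 0.04. These were 37.5% and 12.5%, against 19.3% and 14.5% of all genes tested. Rab13, which acts in recycling to cell junctions, rose most. Its intensity on set C was 49.0 and 51.5 on the depleted arrays and 222, 212 and 209 on the enriched ones, a log2 difference of 1.37 ± 0.05 (SE) or 2.59-fold (limma, adjusted p = 4.68e-07). The depleted values lay below the pseudocount of set C (52.95), and a fold computed with the pseudocount understates the change of so dim a gene. Rab2a, which works between the endoplasmic reticulum (ER) and the Golgi, had 247 and 333 on the depleted arrays and 599, 784 and 719 on the enriched arrays of set A (1.06 ± 0.13, adjusted p = 2.66e-04). Rab12, linked to the degradation of the transferrin receptor, went from 219 and 229.7 to 433, 564 and 472 (0.88 ± 0.10, adjusted p = 1.78e-04). For Rab31, a Rab5 relative on the route from the trans-Golgi network to endosomes, the values were 147 and 163 against 360.0, 322 and 336 (0.81 ± 0.07, adjusted p = 4.66e-05). In Rab2a and Rab12 every enriched array lay above every depleted array. Rab13 and Rab31 entered the test through their enriched arrays alone, so the lack of overlap in them is no separate support. Another Rab13 probe set, on set B, was too dim for the test (66.6 and 81.9 against 65.5 and 68.7).

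Rab11a, the marker of the recycling endosome, gave 493 and 485 on the depleted arrays and 860.2, 962 and 915 on the enriched arrays (0.79 ± 0.08, adjusted p = 6.98e-05). Its close relative Rab11b did not pass, with 2182 and 2172 against 2299, 2309.7 and 2353 (0.09, 95% interval -0.08 to 0.25, adjusted p = 0.374). The early endosomal Rab5a and Rab5c rose by 0.43 and 0.44, while Rab5b did not pass (-0.16, adjusted p = 0.0859). The late endosomal Rab7 rose by 0.58 ± 0.12 and Rab7b by 0.21 ± 0.06, but both calls were lost without depleted sample 1 (adjusted p = 0.056 and 0.161). Rab14, between early endosomes and the Golgi, rose at its brightest probe set from 757 and 811 to 1059, 1248 and 1268 (0.55 ± 0.09, adjusted p = 0.00198). Another Rab14 probe set of the same arrays fell from 390 and 383 to 249.9, 280.4 and 295 (-0.39, adjusted p = 0.00397), and the mean over the probe sets did not pass (adjusted p = 0.486). Rab18 of the ER and lipid droplets (0.68), Rab20 of phagosomes (0.53) and Rab28 (0.59) rose as well. Calls for Rab9 (adjusted p = 0.0257), Rab4a (0.0137), Rab3a (0.0272) and Rab7b (0.0261) were lost under 4 or more alternatives each. Of the 18 rising Rab genes, 11 kept the call under every alternative that gave a value.

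Rab27a, which docks secretory lysosomes and cytotoxic granules at the plasma membrane, fell most among the Rab genes. On set B its depleted arrays read 367 and 326 and its enriched arrays 94.8 and 89.7, a log2 difference of -1.30 ± 0.06 or 2.46-fold (adjusted p = 1.72e-07). Its relative Rab27b, known from platelet dense granules and exosome release, moved the other way on the same arrays, from 563 and 549.9 to 787 and 789 (0.45 ± 0.06, adjusted p = 2.77e-04). The groups of Rab27b did not overlap, and Rab27a entered the test through its depleted arrays alone. On the same arrays of set B the NK cell marker Il2rb read 1006 and 932 against 271 and 222, and the platelet marker Ppbp 130.3 and 118 against 2126 and 1584. The T cell markers, tested on set A, also fell, and the part of these cell types in the Rab27 values was not tested. Rab8a, which carries cargo from the Golgi to the cell surface, fell from 1470.5 and 1427 to 949, 1109 and 992 (-0.48 ± 0.09, adjusted p = 0.00245). The Golgi-associated Rab30 went from 607 and 669 to 429 and 439 on set B (-0.48 ± 0.07, adjusted p = 3.11e-04). Rab4b, of fast recycling, fell from 637 and 620.3 to 467, 454 and 433 (-0.41 ± 0.07, adjusted p = 0.00175). Smaller falls were measured for Rab24 (-0.29), a call lost without depleted sample 1 (adjusted p = 0.0602) or 2 (0.0965), and for Rab37 (-0.25).

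**Figure D2:**
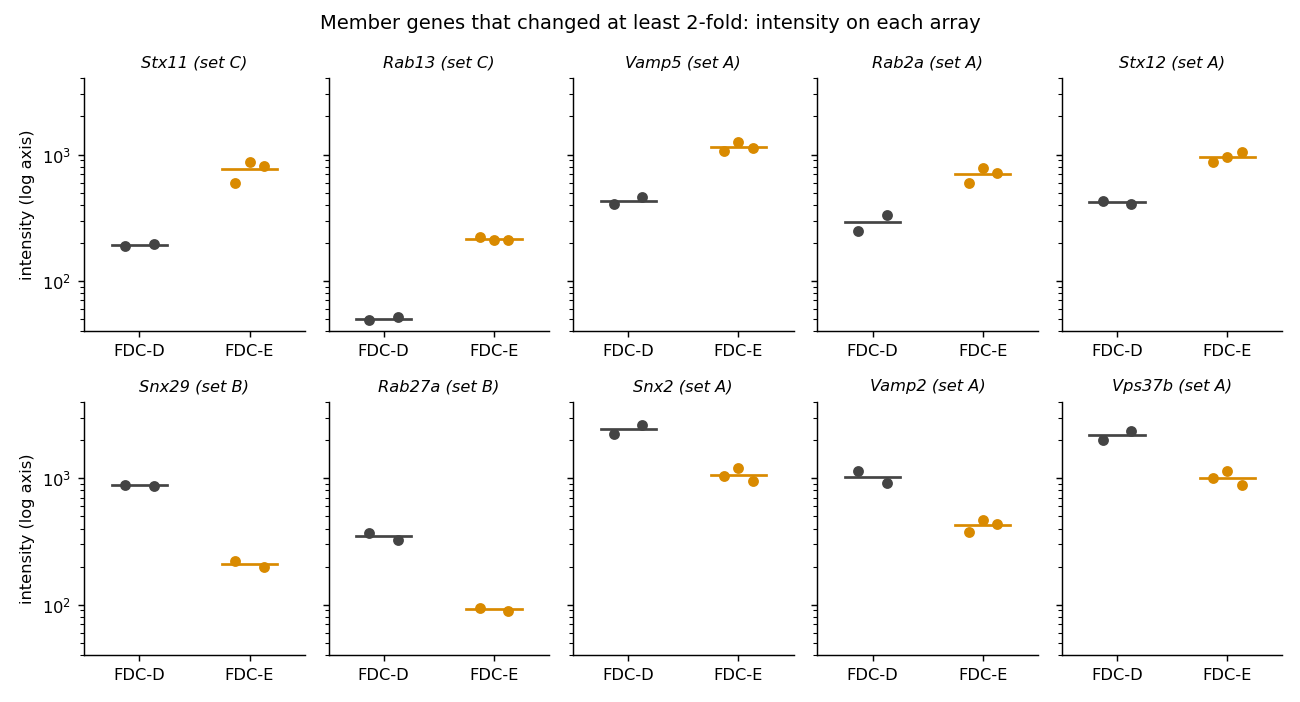
Intensity on every array (log axis) for the 10 genes that changed at least 2-fold, with FDC-D and FDC-E arrays side by side; each point is 1 array, the short line is the mean of a group, and the array set stands in each title. No FDC-E point overlaps the FDC-D points of its gene, and Snx29 falls from 891 and 864 to 221 and 200.2. Rab13 entered the test through its FDC-E arrays alone and Rab27a through its FDC-D arrays alone.

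Among the 10 tested genes named after a Rab without being one, 2 rose and 3 fell. The share of rises was near the 19.3% of all genes tested, and the share of falls lay above their 14.5%. Rab11fip5, an effector that couples Rab11 to recycling vesicles, rose on set C from 430.1 and 391 to 558, 686 and 611 (0.53 ± 0.08, adjusted p = 0.0026), and its probe set on A rose by 1.28. Rab5if rose by 0.31 ± 0.08, a call lost with both other scalings (adjusted p = 0.138 and 0.0674). Rab3gap1, a subunit of the complex that switches Rab3 off, fell from 1558 and 1550.2 to 1168 and 1213 on set B (-0.36 ± 0.06, adjusted p = 0.00121). Rab11fip4 fell by 0.24 on the log2 scale (adjusted p = 0.023), a call that leaving out depleted sample 1 (0.127), depleted 2 (0.0656) or enriched 3 (0.155) each removed. Rab10os, a transcript antisense to Rab10, fell from 360.0 and 269.9 to 179.8, 209 and 176 (-0.54 ± 0.11, adjusted p = 0.00407), and the call was lost without depleted sample 1 (adjusted p = 0.0519). The brightest probe set of Rab10 itself did not pass (0.15, adjusted p = 0.293). A dimmer Rab10 probe set on set A rose by 0.28, from 533 and 582 to 666, 712 and 708 (adjusted p = 0.0176). Without depleted sample 1 these genes held 1 rise and 1 fall, and without depleted sample 2 they held 1 and 2.

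The Arf GTPases, which recruit coats and adaptors, held 2 rises and no fall among 6 genes (33.3% rising, against 19.3% of all genes). Arf1, the main organiser of coats on the Golgi, rose from 3354 and 3311 to 4140.2, 4690.2 and 4689.8 (0.42 ± 0.08, adjusted p = 0.00428). Arf4 rose on set A from 947 and 919 to 1322, 1778 and 1516 (0.66 ± 0.12, adjusted p = 0.00221), yet another probe set of Arf4, on set B, fell by 0.44 on the log2 scale (adjusted p = 0.00288), so the direction for Arf4 depends on the probe set. Arf5, with 4089.5 and 3887 against 4244, 4179.9 and 4185, did not pass (0.07, 95% interval -0.09 to 0.24). Arf2, Arf3 and Arf6 did not pass either.

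Adaptor complexes link membrane cargo to clathrin and related coats, with AP-2 acting at the plasma membrane, AP-1 at the trans-Golgi network and AP-3 on the way to lysosomes. Of 18 tested subunits 2 rose and 3 fell (11.1% and 16.7%, against 19.3% and 14.5% of all genes tested). The AP-2 medium subunit Ap2m1 was 1529 and 1422 on the depleted and 2160.3, 2126 and 2087 on the enriched arrays (0.50 ± 0.08, adjusted p = 9.31e-04). The AP-2 large subunits did not follow it: Ap2a2 (0.11, adjusted p = 0.381) and Ap2b1 (-0.10, adjusted p = 0.312) did not pass. Another probe set of Ap2a2, on set C, fell by 0.78, and 1 of the 2 tested probe sets of Ap2b1 fell. Subunits of AP-3 passed in both directions, with Ap3s1 at 0.37 ± 0.08, Ap3d1 at -0.33 ± 0.10 and Ap3m2 at -0.25 ± 0.06, and the rise of Ap3s1 was lost without depleted sample 2 (adjusted p = 0.0633). In AP-1, Ap1b1 fell from 1025 and 1064 to 744, 855 and 833 (-0.34 ± 0.08, adjusted p = 0.0122). Each of the 3 falls was lost without a depleted sample: Ap3d1 was lost without depleted sample 1 (adjusted p = 0.315), Ap3m2 without depleted sample 2 (0.0548) and Ap1b1 without either (0.0707 and 0.113).

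The vesicle SNAREs moved both ways, with 2 rises and 1 fall among 7 Vamp genes (28.6% and 14.3%, against 19.3% and 14.5% of all genes). Vamp5, also called myobrevin, had 403 and 462 on the depleted and 1072, 1266 and 1130.1 on the enriched arrays of set A (1.26 ± 0.09, 2.39-fold, adjusted p = 1.62e-05). Vamp7, a SNARE of lysosome fusion and exocytosis, rose on set B from 90.2 and 89.3 to 171 and 188 (0.61 ± 0.06, adjusted p = 1.45e-05), and was too dim to be tested there without either enriched array. Vamp2, the synaptobrevin of regulated exocytosis, fell from 1135 and 919.5 to 376, 470.2 and 433 (-1.11 ± 0.11, 2.16-fold, adjusted p = 9.07e-05). Vamp8, the endosomal SNARE of lysosome and granule fusion, had 1742 and 1596 against 1789, 1957 and 1742 (0.13, adjusted p = 0.286). Vamp5 and Vamp2 showed no overlap between groups.

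Of the syntaxins, the target membrane SNAREs, 3 of 12 rose and none fell. The largest rise among the 170 genes was in Stx11, a syntaxin of granule fusion in cytotoxic cells and platelets that is also found in macrophages. It had 189 and 197 on the depleted and 594, 872 and 818 on the enriched arrays of set C (1.71 ± 0.13, 3.28-fold, adjusted p = 4.54e-05), and a dimmer probe set of the same set rose by 0.93. Stx12, which sits on recycling endosomes, rose from 431 and 404 to 877, 957 and 1042 (1.05 ± 0.09, 2.07-fold, adjusted p = 3.02e-05). Stx2, of the plasma membrane, went from 821 and 791 to 1154, 1131 and 1160.0 (0.47 ± 0.07, adjusted p = 9.66e-04). These 3 calls held under every alternative. Stx16, a syntaxin of the trans-Golgi network, did not pass at its brightest probe set (0.04, adjusted p = 0.664), but another fell by 0.57, and the mean over both fell by 0.26 (adjusted p = 0.00703). The late endosomal Stx7 was represented by a probe set on C that was high on enriched sample 2 only. It read 1021 there, 139 and 138 on the other enriched arrays and 153 and 142 on the depleted. That probe set did not pass (0.76, adjusted p = 0.48), so Stx7 is counted as not passing. Its probe set on A, however, rose from 449 and 450.1 to 747, 939 and 878 (0.80, adjusted p = 2.67e-04).

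The promoters of the genes that rose or fell most and have a single start in the RefSeq table are shown so that a reader can compare the sequence at a rising and at a falling gene. Each window holds 300 bases around the RefSeq start on GRCm38.p6, given 5′ to 3′ on the gene's strand. Capitals mark the GC box GGGCGG and the E-box CACGTG, each searched on both strands, so that a GC box on the other strand reads CCGCCC. The rising genes come first.
Stx11 chr10:12964210-12964509 (- strand): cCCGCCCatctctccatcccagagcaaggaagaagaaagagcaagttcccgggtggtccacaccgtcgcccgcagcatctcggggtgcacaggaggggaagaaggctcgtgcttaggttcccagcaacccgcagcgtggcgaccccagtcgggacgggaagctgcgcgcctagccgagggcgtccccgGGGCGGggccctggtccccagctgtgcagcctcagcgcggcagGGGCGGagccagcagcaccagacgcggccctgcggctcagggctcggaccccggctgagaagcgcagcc
Vamp5 chr6:72380419-72380718 (- strand): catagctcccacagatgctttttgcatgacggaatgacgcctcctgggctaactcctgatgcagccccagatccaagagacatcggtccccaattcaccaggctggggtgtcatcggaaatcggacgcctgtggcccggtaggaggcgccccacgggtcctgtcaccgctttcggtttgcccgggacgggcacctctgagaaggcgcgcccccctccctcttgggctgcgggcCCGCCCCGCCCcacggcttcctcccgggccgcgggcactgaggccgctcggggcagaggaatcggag
Vps16 chr2:130424070-130424369 (+ strand): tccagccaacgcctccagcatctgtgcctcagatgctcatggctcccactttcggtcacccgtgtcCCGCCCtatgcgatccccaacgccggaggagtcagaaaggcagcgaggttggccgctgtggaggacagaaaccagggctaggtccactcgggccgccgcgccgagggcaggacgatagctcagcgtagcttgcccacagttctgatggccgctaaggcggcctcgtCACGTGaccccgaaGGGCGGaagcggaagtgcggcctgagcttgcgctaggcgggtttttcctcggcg
Rab10os chr12:3235541-3235840 (+ strand): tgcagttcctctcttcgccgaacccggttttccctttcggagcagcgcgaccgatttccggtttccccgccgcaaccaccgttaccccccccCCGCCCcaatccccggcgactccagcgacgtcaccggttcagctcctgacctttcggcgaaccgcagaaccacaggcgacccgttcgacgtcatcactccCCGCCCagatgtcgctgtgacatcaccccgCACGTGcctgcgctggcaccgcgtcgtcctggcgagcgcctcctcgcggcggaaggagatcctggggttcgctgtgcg
The windows of the rising Stx11 and Vamp5 held 3 and 2 GC boxes and no E-box, and those of the falling Vps16 and Rab10os held 2 GC boxes and 1 E-box each. At least 1 GC box was found in 35.7% of all 32851 RefSeq promoter windows and an E-box in 7.15%; counted over 27025 genes the shares were 38.2% and 8.09%. Over all 126 trafficking genes with a window, called or not, the GC box was in 93 (73.8%), the E-box in 21 (16.7%) and the ETS motif CCGGAAG in 22 (17.5%). Of these genes, the E-box was in 4 of 32 that rose (Ap2m1, Rab20, Rab5a and Snx18) and in 6 of 13 that fell (Rab10os, Rab24, Rab27a, Snx5, Snx8 and Vps16), and the GC box in 29 of 32 and 9 of 13. The ETS motif, searched likewise, was in 3 of 32 and 4 of 13, against 8.86% of all windows and 9.93% of all genes. These are matches of letters and not shown to be sites.

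Vps proteins form the retromer, the ESCRT complexes, the tethers HOPS and CORVET and several other assemblies, and 6 of 32 rose and 5 fell. These were 18.8% and 15.6%, near the 19.3% and 14.5% of all genes tested. The retromer core gave Vps29 at 303 and 321 against 435, 464 and 431 (0.41 ± 0.07, adjusted p = 0.00176) and Vps35 at 709.5 and 672 against 819, 983 and 949 (0.36 ± 0.09, adjusted p = 0.0132). Vps26b rose by 0.19, and Vps26a did not pass (-0.01), although 1 of its 2 tested probe sets rose. With the sorting nexins that work with it and Vps35l and Vps26c of the related retriever, the list held 5 rises (Vps29, Vps35, Vps26b, Vps35l and Snx1) and 2 falls (Snx2 and Snx5) among 11 genes. Rises were 45.5% and falls 18.2%, against 19.3% and 14.5% of all genes tested. Vps29 alone of the 5 rises was still called with every array scaled to a common median. Among the same genes 3 rises were counted with quantile normalization, and the count was 1 without depleted sample 1 or 2 and 2 without enriched sample 3.

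In the ESCRT-I complex, which sorts ubiquitinated cargo, the alternative Vps37 subunits differed. Vps37b fell from 2017 and 2374 to 1005, 1149 and 884 (-1.05 ± 0.12, 2.08-fold, adjusted p = 1.76e-04), and was the Vps gene with the largest fall. Vps37c rose from 427 and 419 to 576, 658 and 684 (0.51 ± 0.08, adjusted p = 0.00164), while the brightest probe set of Vps37a did not pass (0.08), although a dimmer one rose by 0.55. Vps28, another ESCRT-I subunit, fell by 0.32 on the log2 scale, a call lost without either depleted sample. Vps16, in the core of HOPS and CORVET, fell from 637 and 598 to 384, 408 and 392 (-0.55 ± 0.07, adjusted p = 3.50e-04). The other core subunits tested, Vps11 (-0.05), Vps18 (-0.21) and Vps33a (-0.05), did not pass. Vps13a, a lipid transfer protein, fell from 179.6 and 171 to 120.5 and 129 on set B (-0.32 ± 0.05, adjusted p = 0.00127). Vps72, which rose by 0.24, is a subunit of chromatin complexes and carries the name without belonging to the trafficking machinery. Without depleted sample 1, the Vps genes held 2 rises and 2 falls, without depleted sample 2 the counts were 2 and 3, and without enriched sample 3 they were 3 and 3. With median scaling 3 rose and 8 fell.

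**Figure D3:**
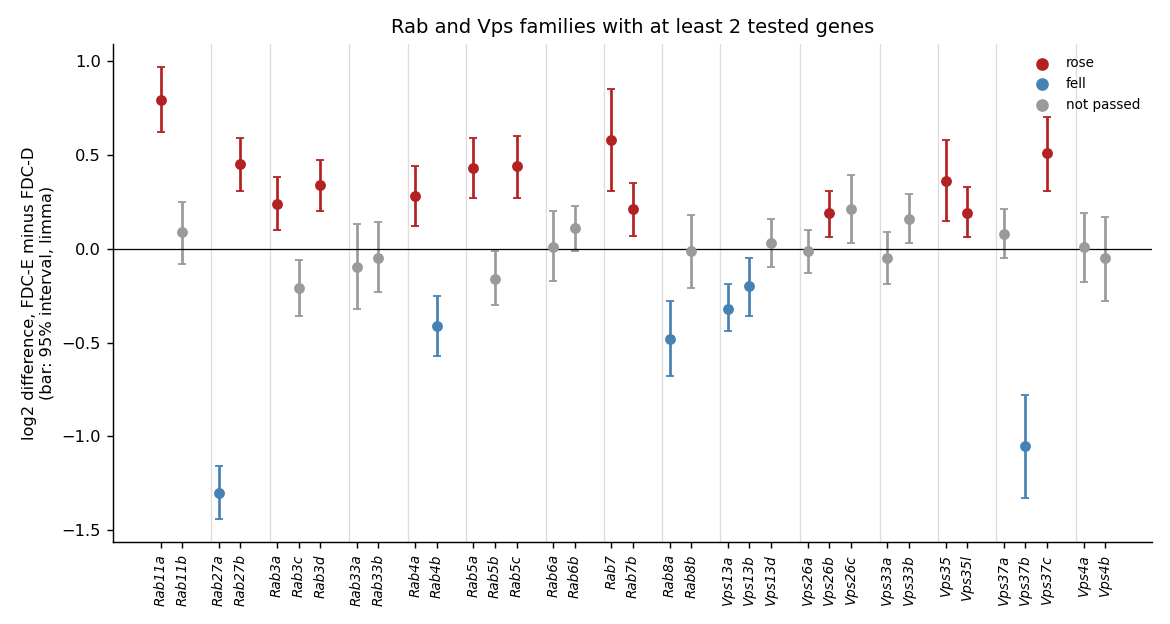
Log2 difference, FDC-E minus FDC-D, for each tested gene of the 15 Rab and Vps families with at least 2 tested genes; bars are 95% intervals from limma. Rab27a (-1.30) and Rab27b (0.45), Rab4b (-0.41) and Rab4a (0.28), and Vps37b (-1.05) and Vps37c (0.51) lie on opposite sides of 0.

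Relatives of the same family did not always move together. Of 15 Rab and Vps families with at least 2 tested genes, 3 had members that passed in opposite directions, the Rab4, Rab27 and Vps37 families. In 2 families, Rab7 with Rab7b and Vps35 with Vps35l, all tested members rose. A further 6 had some members that passed, all in the same direction, and 4 had none at the probe sets that represent the genes. The Rab6 family is 1 of these 4, but other probe sets of its genes rose. For Rab6a the rise was 0.81 on set A (466 and 449.7 against 797, 888 and 917, adjusted p = 9.28e-05). For Rab6b it was 0.48 on set B (adjusted p = 1.39e-04). The rise of Rab4a (184 and 168 against 235, 219 and 245) was lost under 5 alternatives, with adjusted p up to 0.167, whereas the calls of Rab27b, Vps37b and Vps37c held under every alternative run. Rab27a, which entered the test through its depleted arrays alone, was too dim to be tested on set B without either of them, so those fits gave no value for it.

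The sorting nexins, which bind endosomal lipids and sort or tubulate membranes, held 8 rises and 4 falls among 26 tested genes, and the largest falls exceeded the largest rise. Rises were 30.8% and falls 15.4%, against 19.3% and 14.5% of all genes tested. Among genes at their brightest probe sets Snx29 fell most, from 891 and 864 to 221 and 200.2 on set B (-1.72 ± 0.06, 3.29-fold, adjusted p = 3.29e-08). Snx2, a membrane-bending partner of the retromer, fell from 2248 and 2658 to 1036, 1208 and 958 (-1.14 ± 0.11, 2.20-fold, adjusted p = 9.38e-05), and its second probe set on A fell by 0.86. Snx5, of the same kind, fell on set B from 1414 and 1294 to 882 and 949.5 (-0.52 ± 0.07, adjusted p = 2.52e-04). Another probe set of Snx5, on set A, fell further, and further than Snx29, from 2044 and 2104 to 313, 403 and 350.1 (-2.29, adjusted p = 6.58e-07). Of their partners, Snx1 rose slightly (0.22, adjusted p = 0.0467, a call lost under 7 alternatives), and Snx6 did not pass (0.00, adjusted p = 0.986). Snx30 did not pass at its brightest probe set (3883 and 3763 against 3409.7 and 3436, -0.16, adjusted p = 0.0571), while 2 other probe sets of it fell, by 1.69 and 0.34.

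Snx3, which brings the retromer to early endosomes, rose from 1899 and 1801 to 2809.9, 3042 and 3084 (0.66 ± 0.08, adjusted p = 2.67e-04). Snx10, known from osteoclasts and endosome shape, rose by 0.79 ± 0.22 (adjusted p = 0.0199), but its depleted arrays stood far apart at 113 and 278, against 338, 437 and 378. Snx21 and Snx18 rose by 0.29 and 0.25, and Snx8 fell by 0.20 on the log2 scale. Snx3 was the only one of the 8 rising sorting nexins to keep its call under every alternative, against 3 of the 4 that fell. The count of rises went from 8 to 2 without depleted sample 1, to 3 without depleted sample 2 or enriched sample 3, and to 4 with median scaling.

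Among the calcium sensors of exocytosis, few genes passed. Of the synaptotagmins tested 11.1% rose and 0% fell, against 19.3% and 14.5% of all genes tested. Of 9 tested synaptotagmins only Syt1, the sensor of synaptic vesicle release, passed, from 141 and 138 to 195 and 208 on set B (0.36 ± 0.05, adjusted p = 5.60e-04). It entered the test through the enriched arrays alone and was too dim to be tested without either of them. Syt11 had 1747 and 1748 against 1765 and 1951 (0.08, 95% interval -0.07 to 0.24). Neither of the synaptotagmin-like proteins tested passed, Sytl1 at -0.07 and Sytl4 at 0.08, and 7 synaptotagmins with Sytl2 were too dim to test.

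Set out by compartment, early endosome and recycling genes held 11 rises and 3 falls among 32, led by Rab13, Stx12, Rab31 and Rab11a. These were 34.4% and 9.38%, against 19.3% and 14.5% of all genes tested. Those of regulated exocytosis held 7 and 3 among 24 (29.2% and 12.5%), with Stx11 and Vamp5 at the upper end and Rab27a and Vamp2 at the lower. ER to Golgi genes held 4 and 1 among 22, late endosome and lysosome fusion genes 4 and 2 among 20, and ESCRT genes 1 and 2 among 7. Of the ER to Golgi genes 18.2% rose and 4.55% fell, against 19.3% and 14.5% of all genes tested. Late endosome and lysosome fusion genes had a share of rises near that of all genes and a lower share of falls. For the few ESCRT genes the shares were 14.3% and 28.6%. Without depleted sample 1, the late endosome and lysosome list held 1 rise and 1 fall. Median log2 differences of these lists lay between -0.00 and 0.05, beside 0.02 for all genes, and that of the retromer list was 0.19.

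**Figure D4:**
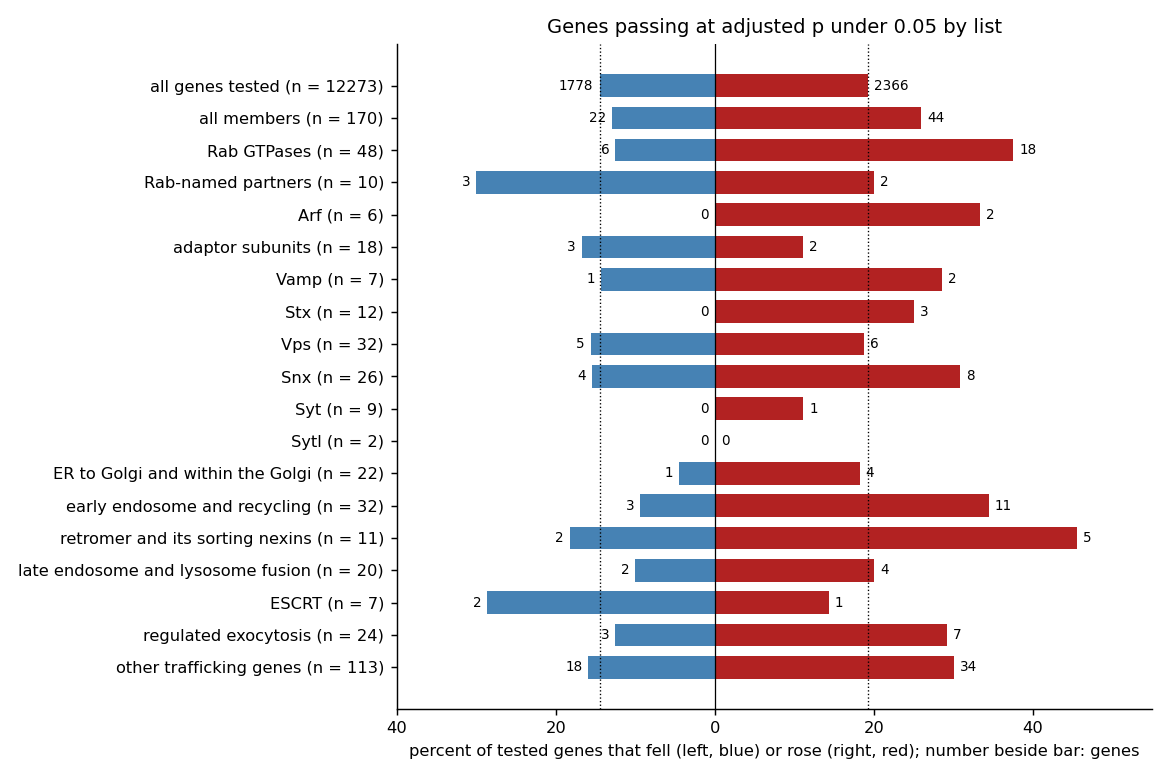
Percent of tested genes that fell (left) or rose (right) in FDC-E at an adjusted p under 0.05, for each class and compartment of trafficking genes, with numbers of genes beside the bars and dotted lines at the percentages of all genes tested. Rab GTPases show 37.5% rises and 12.5% falls, against 19.3% and 14.5% of all genes tested.

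Trafficking genes outside the naming rule, 113 tested of 126 listed, held 34 rises (30.1%) and 18 falls (15.9%), with a median of 0.03. Over all genes tested 19.3% rose and 14.5% fell, with a median of 0.02, so the share of falls was near that of all genes. The 5 largest rises were all genes of caveolae, the plasma membrane pits abundant in endothelium. Cavin3 went from 54.1 and 57.3 to 1409, 1466 and 1453 (3.41 ± 0.07, 10.6-fold, adjusted p = 3.40e-08) and Cav1 from 134 and 140.0 to 1949, 2281 and 2118 (3.29 ± 0.09, adjusted p = 9.33e-08). Cavin2 (3.40, on set C), Cav2 (2.83) and Cavin1 (2.41) rose with them. The endothelial markers, read on sets A and B only, rose too, and the part of endothelium in these values was not tested. The largest falls were in Gga2, an Arf-dependent adaptor of the trans-Golgi network, from 1184 and 1237 to 394, 468 and 387 (-1.37 ± 0.09, adjusted p = 7.56e-06), and Sorl1, a sorting receptor cycled by the retromer (-1.26). Itsn2 (-0.96) and Bin1 (-0.70), both of endocytosis, and Arfgef1 (-0.63), an activator of Arf proteins, followed. The cofactors of granule fusion Unc13d and Stxbp2, which work with Rab27a and Stx11 respectively, fell by 0.38 and 0.40 on the log2 scale.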

How the data were processed

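For each array set the authors deposited linear intensity values, 1 per array for every probe set. The summary, background correction and scaling behind them are not stated in the labels, and the number of arrays limits the precision. Probe sets were named through the platform annotation, with symbols updated by Entrez identifier to RefSeq's GRCm38.p6 gene table. Only probe sets with 1 symbol were used, which left out 1 probe set on A and 1 on B that named a member among several genes.

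Each set was fitted alone with limma 3.58.1 in R 4.3.3 (lmFit, eBayes with trend, two-sided) on log2(intensity + pseudocount), the deposited scale being kept. The pseudocount was the 20th percentile of positive values (88.62 on A, 81.28 on B, 52.95 on C), so folds of dim genes are understated. Probe sets entered the test if at least 2 arrays showed them above their 40th percentile, so a gene could enter through 1 group alone, and 66 controls per set were left out. Enriched sample 2 on A lacked 893 values, which were fitted on the remaining arrays. P-values were adjusted by Benjamini-Hochberg within a set over all tested probe sets. A gene was represented by its brightest tested probe set, from the set where that ranked highest in level, and levels of different probe sets were not compared.

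The fit was tested on simulated data. Alternatives were quantile and median scaling, pseudocount 16, no filter, no prior trend, a replicate block, the mean over the probe sets of a gene, and each sample left out in turn. The rule for named genes took, per class, the 4 largest rises and 4 largest falls that passed, the brightest gene and genes with opposed probe sets, and the 5 largest rises and falls of the other trafficking genes. Relatives, complex partners and further genes outside it were named with their values known. Members and lists were chosen with earlier results of these data known.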

Additional observations from a re-analysis of the deposited data

How the results depend on the processing

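On set C, 4 member probe sets fell in the reported fit and 8 with scaling to a common median, and 8 without the filter. Leaving out 1 sample at a time gave 26 to 41 rises and 11 to 20 falls on A, 9 to 12 and 8 to 17 on B, and 6 to 10 and 4 to 6 on C. Over member genes it gave 29 to 47 rises and 12 to 23 falls, and over the other trafficking genes 22 to 37 and 11 to 18. Depleted samples 1 and 2 and enriched sample 3 cost the most calls, 24, 22 and 16 of the 64 called genes still tested, and these fits hold fewer arrays; a group left with 1 array was taken to vary like the other group. Stx16 turned from 0.04 to -0.26 with the mean over its probe sets. With the replicate block on A and C, 40 member genes rose and 18 fell. After each group was centred on its mean, same-numbered samples correlated at 0.031 and 0.059 on A and at -0.312 and -0.149 on C. With 2 depleted arrays the centred values mirror each other, so these correlations cannot decide whether same-numbered samples were paired. Set B shares 1 number, which allows no block. The block lost 9 of the 46 calls on A and C, among them Rab24 (adjusted p = 0.0525) and Rab37 (0.0543). Pseudocount 16 and no prior trend lost none of the 66 calls, no filter and the mean over probe sets lost 2 each, quantile scaling 6 and median scaling 10. With 2 or 3 arrays a group, a gene that did not pass is not shown to be level.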
